A study of Mus musculus with 6 samples.

Results

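The genes described here build, cut and stiffen the extracellular matrix of a mammary tumor. They are 16 matrix metalloproteinases (Mmp), 4 tissue inhibitors of metalloproteinases (Timp), 7 ADAM and 9 ADAMTS metalloproteinases, the 5 lysyl oxidases (Lox, Loxl1 to Loxl4) and 4 plasminogen system genes, 45 genes in all of the 54232 in the count files. They were chosen by name and family, and all 45 were found by their symbols. Matrix metalloproteinases are zinc enzymes that cut collagens, laminins and other matrix proteins, and TIMPs block their active site. ADAMs mostly release membrane-bound growth factors, ADAMTS enzymes process collagen precursors, proteoglycans and microfibrils, and lysyl oxidases oxidise lysines so that collagen and elastin fibres become crosslinked. In solid tumors most of these genes are known from fibroblasts, macrophages and vessel cells, and a smaller number from the carcinoma cells themselves.

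RNA came from 6 bulk tumor libraries of mice carrying NIC, a transgene that uses the MMTV promoter, active in mammary epithelium, to express activated ErbB2 together with Cre recombinase. In 3 libraries the mice were CdGAP fx/fx (fx1, fx2 and fx3), with Cre target sites in both copies of Arhgap31, the gene for CdGAP, a GTPase-activating protein that turns off Cdc42 and Rac1, and in 3 they were CdGAP wt/wt (wt1, wt2 and wt3). All 6 carry the transgene, and Cre acts only in cells in which that promoter is active, so it does not target the stromal cells that these bulk tumors also hold. Neither the age of the mice nor the number of animals behind the 3 libraries of a genotype is in the labels. The spread that each p-value rests on is therefore that of the libraries, which may not come from separate animals.

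Libraries held between 36732137 and 53606276 counts. Arhgap31 measured 156, 44.1 and 116 CPM (read counts scaled to library size, with TMM factors) in fx1, fx2 and fx3, against 664, 433 and 549.8 CPM in wt1, wt2 and wt3, without overlap (log2 fold change -2.38, SE 0.45; adjusted p = 0.153 in edgeR and 3.21e-05 in DESeq2). Luminal epithelial markers such as Epcam, Krt8 and Krt18 summed to between 2051 and 2795 RPKM (CPM per kilobase of exon) in fx/fx tumors and between 2096 and 2531 RPKM in wt/wt tumors. Fibroblast markers summed to between 109 and 205 RPKM in fx/fx tumors, against 42.3 to 70.5 RPKM in wt/wt tumors.

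Genes of this set had higher levels in fx/fx tumors, and the lysyl oxidases had the highest family median. Of the 45, 41 passed the filter on low counts, and 36 of these had a log2 fold change above 0, where 49.6% of all 16752 genes tested did. Their median log2 fold change was 0.84, against -0.004 over all genes tested. With edgeR's quasi-likelihood test, adjusted over all genes, 0 members passed, as did 0% of all genes. At an unadjusted edgeR p under 0.05 there were 21 members, all higher in fx/fx, where 8.18% of all genes were higher and 6.04% lower. DESeq2 called 10 members, all higher in fx/fx (3.01% of all genes were called higher, 1.95% lower and 4.96% in either direction). In 18 members every fx/fx library lay above every wt/wt library, which held for 9.74% of all genes, and in 0 members the reverse held (9.93%).

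Those counts include Mmp9 and Loxl4, which passed the filter only because of their fx/fx libraries. Among the other 39 members tested, 34 had a log2 fold change above 0, 19 had an unadjusted edgeR p under 0.05 and 16 did not overlap. Without any filter, 40 of the 45 members had a log2 fold change above 0 and 23 had an unadjusted edgeR p under 0.05 in the direction of fx/fx (5.96% of 29540 genes). Adamts12 then passed edgeR (adjusted p = 0.0458), as did 0.129% of genes.

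**Figure D1:**
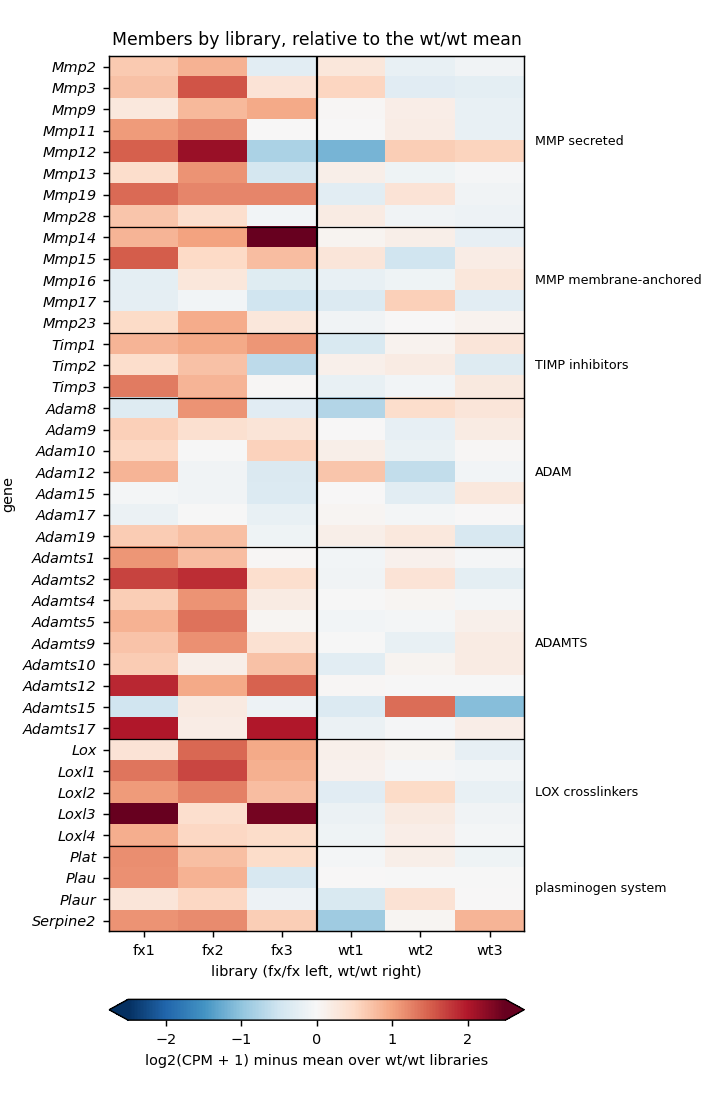
Level of the 41 members tested (rows, by role) in each library (columns, fx/fx left of wt/wt), as log2(CPM + 1) minus the mean over the wt/wt libraries; red is higher and blue lower. Most rows are red in fx1 and fx2 and paler in fx3, which was the lowest fx/fx library for 29 of the 41 genes.

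Expressed per exon length, the set was led by proteases of the cell surface. Mmp15 had the highest mean over the 6 libraries (60.0 RPKM), followed by Adam10 (44.8 RPKM), Adam9 (22.2 RPKM), Serpine2 (14.1 RPKM) and Adam17 (14.0 RPKM). Only 8 of the 45 reached 10 RPKM, the others being Adam15, Timp2 and Loxl3, and 28 reached 1 RPKM. Secreted metalloproteinases were low: Mmp2 averaged 8.26 RPKM and the other 9 lay at or below 1.79 RPKM. Mmp7 was at 0 counts in 5 libraries and 2 counts in fx3, and a library with a count of 0 allows up to 3 counts, worth 0.056 to 0.0817 CPM by library. Mmp7, Mmp10, Mmp24 and Timp4 were the 4 members left untested.

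Promoter sequences are shown for the 5 Mmp members on chromosome 9 because their windows hold a pair of motifs that no other member's window searched holds together. Mmp13, Mmp12, Mmp3, Mmp10 and Mmp7 lie within 427.1 kb of chromosome 9 (7272514 to 7699585, GRCm38), among 10 Mmp genes in all, the other 5 being Mmp1b, Mmp1a, Mmp8, Mmp27 and Mmp20. RefSeq promoter windows (GRCm38.p6, 250 bases before to 50 after a start) of 28 of the 45 members were used. Loxl4 was the only lysyl oxidase among these 28, so the others of that family were not searched. The windows were searched on both strands for the AP-1 motif TGANTCA, the TATA box TATAAA and the GC box GGGCGG. Of 32851 windows of all genes, 7.81% held the AP-1 motif, 13.6% the TATA box and 35.7% the GC box. All 5 Mmp members on chromosome 9 had a window with both AP-1 motif and TATA box, and among the 28 members searched these 5 alone had both. Of the 5 Mmp genes between them that are not members, 3 had both (Mmp1b, Mmp1a and Mmp20), Mmp8 had the TATA box only and Mmp27 had neither. For Mmp12 and Mmp7 a second listed start had a window with neither. The stretches from 100 bases before to 20 after the start follow, all on the plus strand, with AP-1 motif and TATA box in capitals.
Mmp13: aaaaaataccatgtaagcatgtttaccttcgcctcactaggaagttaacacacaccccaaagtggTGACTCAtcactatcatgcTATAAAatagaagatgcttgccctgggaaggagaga
Mmp12: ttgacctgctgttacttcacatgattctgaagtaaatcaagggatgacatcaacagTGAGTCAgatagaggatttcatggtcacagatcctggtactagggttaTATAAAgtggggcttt
Mmp3: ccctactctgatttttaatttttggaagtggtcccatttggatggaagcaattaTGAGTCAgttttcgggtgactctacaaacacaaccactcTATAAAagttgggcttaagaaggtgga
Mmp10: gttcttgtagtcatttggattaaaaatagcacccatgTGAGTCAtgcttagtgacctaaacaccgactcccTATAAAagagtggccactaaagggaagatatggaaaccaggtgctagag
Mmp7: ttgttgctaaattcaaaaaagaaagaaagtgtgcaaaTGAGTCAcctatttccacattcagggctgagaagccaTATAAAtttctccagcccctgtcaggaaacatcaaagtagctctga

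Of the 10 members that DESeq2 called, 6 had a window (Mmp14, Timp1, Adamts2, Adamts12, Adamts17 and Loxl4), 0 of these 6 held the AP-1 motif or the TATA box, and 4 held the GC box. With shares of 7.81% and 13.6% over all genes, 0 of 6 is near the background, and the GC box was held by 20 of the 28 members searched. The windows of Mmp14 (chr14:54431348-54431647, plus strand) and Loxl4 (chr19:42612757-42613056, minus strand) are given as examples, with GC boxes in capitals. A match describes letters in the window and no more.
Mmp14: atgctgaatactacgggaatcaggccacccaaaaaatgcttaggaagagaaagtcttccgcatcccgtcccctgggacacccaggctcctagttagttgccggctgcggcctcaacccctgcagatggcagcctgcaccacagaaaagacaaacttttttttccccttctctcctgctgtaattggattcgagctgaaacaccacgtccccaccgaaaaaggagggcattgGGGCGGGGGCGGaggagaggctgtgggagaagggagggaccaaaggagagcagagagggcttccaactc
Loxl4: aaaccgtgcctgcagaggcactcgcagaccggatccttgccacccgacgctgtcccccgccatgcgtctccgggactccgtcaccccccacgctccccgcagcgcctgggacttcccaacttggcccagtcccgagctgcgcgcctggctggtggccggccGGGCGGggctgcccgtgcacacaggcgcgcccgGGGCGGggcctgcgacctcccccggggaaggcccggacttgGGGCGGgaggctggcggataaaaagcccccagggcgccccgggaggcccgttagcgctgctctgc

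The lysyl oxidases were the one family in which every member was higher in all fx/fx libraries. The median log2 fold change of the 5 was 1.43, all 5 had an unadjusted edgeR p under 0.05, and DESeq2 called 4 (Loxl1, Loxl2, Loxl3 and Loxl4). Loxl4 passed the filter only through its fx/fx libraries. Over the other 4 the median was 1.28, all 4 had an unadjusted edgeR p under 0.05 and DESeq2 called 3. Loxl1 (ENSMUSG00000032334, chromosome 9, 58287738 to 58313186, minus strand), which acts on elastic fibres, measured 22.6, 28.7 and 16.2 CPM in fx1, fx2 and fx3, against 8.996, 8.13 and 7.84 CPM in wt1, wt2 and wt3. Its means were 22.5 ± 6.24 CPM in fx/fx and 8.32 ± 0.602 CPM in wt/wt (SD, n = 3 each), a 2.70-fold higher level. Its wt/wt libraries lay close together, and even the lowest fx/fx library stood clear of them. The log2 fold change was 1.43 (SE 0.27; adjusted p = 0.153 in edgeR and 2.8e-04 in DESeq2), and the DESeq2 call held with any 1 library left out.

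Loxl3 (ENSMUSG00000000693, chromosome 6, 83034173 to 83052562, plus strand), an oxidase known for palate and spine development in mice, had the largest fold change of the set. It measured 180, 16.3 and 66.1 CPM in fx1, fx2 and fx3, against 10.7, 14.0 and 11.2 CPM in wt1, wt2 and wt3. The fx1 value was far above every wt/wt value, while fx2 lay just above wt2. Its log2 fold change was 2.87 (SE 0.78; adjusted p = 0.216 in edgeR and 0.00162 in DESeq2), and the DESeq2 call was lost without fx1. Genes within 5 Mb of Loxl3 (69 with a mean over 3 CPM) had a median of -0.14 in fx1 and 0.04 in fx3, in log2(CPM + 1) minus the wt/wt mean, where Loxl3 itself stood at 3.81 and 2.38.

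Lox, the founding enzyme of the family, measured 20.5, 45.2 and 31.7 CPM in fx1, fx2 and fx3, against 17.7, 16.8 and 13.8 CPM in wt1, wt2 and wt3. Its fx/fx libraries did not overlap with wt/wt, but fx1 was close to wt1 (log2 fold change 1.01, SE 0.30; adjusted p = 0.228 in edgeR and 0.0666 in DESeq2). Loxl2, which crosslinks basement membrane collagen, measured 13.6, 15.8 and 10.9 CPM in fx/fx, against 4.70, 8.69 and 5.15 CPM in wt/wt (2.17-fold higher, log2 SE 0.33; adjusted p = 0.0309 in DESeq2 and 0.221 in edgeR). The DESeq2 call of Loxl2 was lost without fx1, fx2, wt1 or wt3. Relative to wt/wt, 51 genes within 5 Mb of Loxl2 had medians of -0.04, -0.15 and 0.54 in fx1, fx2 and fx3. Loxl2 stood at 1.07, 1.27 and 0.77 there. In wt2 the neighbours were at 0.39 and Loxl2 at 0.47, so the region was higher too in fx3 and wt2. The part of the region in the level of Loxl2 was not tested. Loxl4 was scarce, with 62, 24 and 24 counts in fx1, fx2 and fx3, against 3, 13 and 5 counts in wt1, wt2 and wt3. Its log2 fold change of 2.35 (SE 0.62; adjusted p = 0.210 in edgeR and 0.0442 in DESeq2) rests on these few counts, and the DESeq2 call was lost without fx1, fx2, fx3, wt1 or wt3.

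Summed over the family, lysyl oxidases reached 53.0, 24.7 and 28.01 RPKM in fx1, fx2 and fx3, against 9.61, 10.7 and 8.65 RPKM in wt1, wt2 and wt3. Loxl3 made up much of the fx1 sum. Without it, a choice made after seeing the data, the sums were 13.9, 21.2 and 13.7 RPKM in fx/fx, against 7.30, 7.64 and 6.23 RPKM in wt/wt, and fx2 became the highest library. Fibroblast markers ran in that same order, at 2.53, 3.69 and 1.97 times their wt/wt mean in fx1, fx2 and fx3, against 1.97, 3.00 and 1.94 times for the lysyl oxidases without Loxl3. The collagen genes Col1a1, Col1a2 and Col3a1 made up most of the fibroblast sums, at 34.6, 19.7 and 36.8 of 140.4 RPKM in fx1. Of the 12 fibroblast markers 11 were higher in fx/fx, and Pdgfra, at 13.2, 15.2 and 11.7 CPM in fx/fx against 15.9, 17.4 and 11.4 CPM in wt/wt, was not. Pericyte markers summed to 83.1, 67.85 and 59.4 RPKM in fx1, fx2 and fx3, against 40.2, 55.6 and 41.3 RPKM in wt1, wt2 and wt3. Adipocyte markers summed to 43.4, 124 and 55.8 RPKM in fx/fx, against 27.3, 7.20 and 9.64 RPKM in wt/wt. Both sums were without overlap. Basal or myoepithelial markers summed to 23.7, 29.8 and 15.1 RPKM in fx/fx, against 9.62, 10.96 and 12.8 RPKM in wt/wt, also without overlap, and 7 of 7 were higher. Acta2 made up most of these sums, at 20.25, 27.2 and 12.41 RPKM in fx/fx, against 8.336, 9.482 and 11.72 RPKM in wt/wt. Taken singly, 3 of the 7 were without overlap, while Krt14, Trp63, Myh11 and Oxtr overlapped. Of 7 mast cell markers, the protease genes Cpa3, Mcpt4, Tpsb2 and Cma1 were 4.39-fold to 5.004-fold higher without overlap at low levels, between 0.485 and 1.525 CPM in fx/fx and between 0.0665 and 0.335 CPM in wt/wt, while Fcer1a and Ms4a2 were at or near 0 and Kit overlapped. In bulk tumors, more cells of a type and more RNA per cell cannot be told apart. The part of fibroblast, pericyte, adipocyte, basal or mast cell content in these values was not tested.

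**Figure D2:**
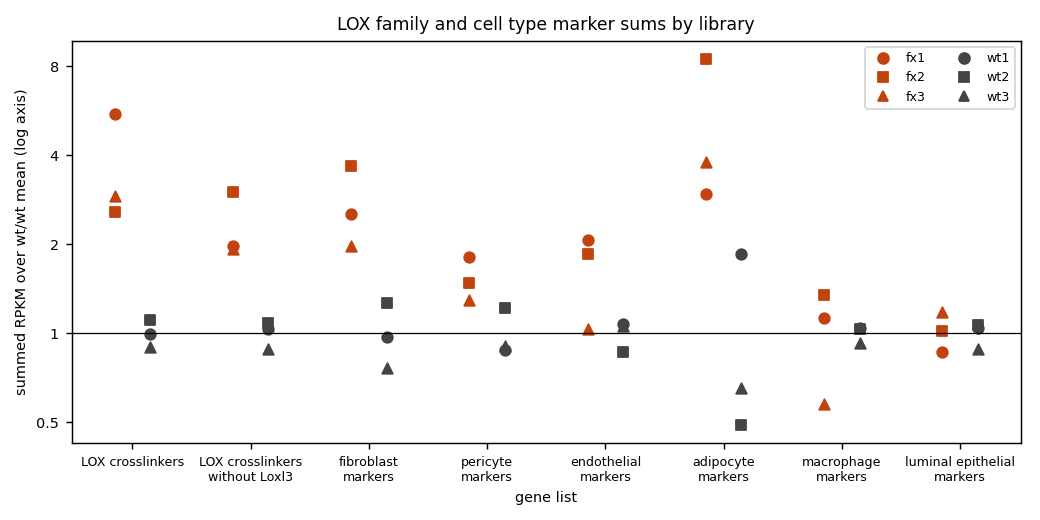
Summed RPKM of the lysyl oxidases, with and without Loxl3, and of cell type markers in each library, divided by the wt/wt mean of the same sum (log axis; orange fx/fx, grey wt/wt, symbol by replicate number). The lysyl oxidase and fibroblast sums of all fx/fx libraries lie above all wt/wt libraries, while macrophage and luminal epithelial sums overlap.

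Membrane-anchored metalloproteinases cut matrix at the cell surface, and 3 of the 5 tested were higher in fx/fx without overlap. Mmp14 (ENSMUSG00000000957, chromosome 14, 54431612 to 54445364, plus strand), which cuts fibrillar collagen and activates the precursor of Mmp2, measured 38.4, 43.3 and 181 CPM in fx1, fx2 and fx3, against 21.9, 23.4 and 17.95 CPM in wt1, wt2 and wt3. The fx3 library carried most of the difference. The log2 fold change was 2.06 (SE 0.60; adjusted p = 0.228 in edgeR and 0.0136 in DESeq2), and 0.97 by DESeq2 without fx3, where the call stayed (adjusted p = 0.00867). The call was lost without any single wt/wt library. Genes within 5 Mb of Mmp14 had a median of 0.09 in fx3 relative to wt/wt, against 3.05 for Mmp14.

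Mmp15, the most abundant member, measured 610, 303 and 369 CPM in fx1, fx2 and fx3, against 264, 152 and 245 CPM in wt1, wt2 and wt3. It is a close relative of Mmp14 and averaged 427 ± 162 CPM in fx/fx and 220.5 ± 60.0 CPM in wt/wt (SD, n = 3 each). The difference did not pass (log2 fold change 0.96, SE 0.33; adjusted p = 0.268 in edgeR and 0.121 in DESeq2). Mmp23 measured 1.53, 2.44 and 1.21 CPM in fx/fx, against 0.709, 0.827 and 0.917 CPM in wt/wt (log2 fold change 1.07, SE 0.40; edgeR adjusted p = 0.302). Mmp23 and Mmp16 lie on chromosome 4, whose genes had a median log2 fold change of -0.53. Relative to wt/wt, genes within 5 Mb of Mmp23 had medians of -0.58, -0.22 and -0.90 in fx1, fx2 and fx3, while Mmp23 stood at 0.48, 0.92 and 0.29. Mmp16 was at -0.25, 0.28 and -0.31 in these libraries, and its neighbours at -0.62, -0.00 and -0.75.

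Mmp16 and Mmp17 were the membrane-anchored members with log2 fold changes below 0. Mmp16 ranged from 61.5 to 92.9 CPM in fx/fx and from 67.0 to 93.6 CPM in wt/wt (log2 fold change -0.09, SE 0.23; edgeR adjusted p = 0.904). Mmp17, which is held in the membrane by a lipid anchor, ranged from 0.776 to 1.39 CPM in fx/fx and from 0.975 to 2.79 CPM in wt/wt (log2 fold change -0.55, SE 0.52; edgeR adjusted p = 0.685).

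Among the secreted metalloproteinases, all 8 tested had a log2 fold change above 0 (median 1.18), and Mmp19 was the one that DESeq2 called. Mmp19 (ENSMUSG00000025355, chromosome 10, 128790910 to 128800824, plus strand), which cuts basement membrane proteins, measured 5.80, 4.98 and 4.97 CPM in fx1, fx2 and fx3, against 1.13, 2.26 and 1.397 CPM in wt1, wt2 and wt3. The means were 5.25 ± 0.474 CPM in fx/fx and 1.595 ± 0.588 CPM in wt/wt (SD, n = 3 each), a 3.29-fold higher level with closely spaced fx/fx libraries. The log2 fold change was 1.72 (SE 0.37; adjusted p = 0.182 in edgeR and 2.96e-04 in DESeq2), and DESeq2 called it with any 1 library left out. Mmp19 did not share the direction of its surroundings in fx1: 66 genes within 5 Mb had a median of -0.70 there, and Mmp19 stood at 1.41.

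The gelatinases, which cut denatured and basement membrane collagen, differed in level. Mmp9, known from neutrophils and macrophages, had 28, 46 and 59 counts in fx1, fx2 and fx3, against 13, 19 and 5 counts in wt1, wt2 and wt3. These counts did not overlap and gave a log2 fold change of 1.94 (SE 0.61; adjusted p = 0.243 in edgeR and 0.0859 in DESeq2). Neutrophil markers summed to 2.91, 2.57 and 1.603 RPKM in fx1, fx2 and fx3, against 2.41, 2.56 and 2.61 RPKM in wt1, wt2 and wt3. These sums rest on scarce genes: 2 of the 6 markers passed the filter. Ly6g had at most 1 count and Cxcr2 and Retnlg at most 6 counts in any library. The part of neutrophils in the level of Mmp9 was not tested. Mmp2, the more abundant gelatinase, measured 36.5, 42.5 and 18.9 CPM in fx/fx, against 27.8, 19.8 and 21.4 CPM in wt/wt, with overlap (log2 fold change 0.50, SE 0.32; edgeR adjusted p = 0.521). Mmp11, known from tumor fibroblasts, measured 5.23, 5.84 and 2.01 CPM in fx/fx, against 2.02, 2.39 and 1.62 CPM in wt/wt, so that fx3 fell within the wt/wt range (log2 fold change 1.119, SE 0.46; edgeR adjusted p = 0.335).

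The chromosome 9 genes Mmp12, Mmp3 and Mmp13 were uneven between fx/fx libraries. So were Mmp14 and Adam8, whose windows held neither AP-1 motif nor TATA box. Between wt/wt libraries Mmp12 and Mmp3 were uneven, while Mmp13 varied less. Mmp12, the macrophage elastase, measured 11.7, 19.1 and 1.63 CPM in fx1, fx2 and fx3, against 1.02, 5.92 and 5.68 CPM in wt1, wt2 and wt3. Macrophage markers summed to 422, 504.5 and 216 RPKM in fx/fx, against 389, 386 and 346 RPKM in wt/wt, with the lowest sum in fx3. Mmp12 itself was lowest in wt1, where the macrophage sum was nearly equal to that of wt2. The part of macrophages in the level of Mmp12 was not tested. Mmp3, a stromelysin that also activates other metalloproteinases, measured 3.65, 7.39 and 2.55 CPM in fx/fx, against 3.08, 1.30 and 1.35 CPM in wt/wt. Mmp13, a collagenase, measured 2.20, 4.15 and 0.752 CPM in fx/fx, against 1.62, 1.21 and 1.31 CPM in wt/wt. All 3 were highest in fx2 and lowest among fx/fx in fx3. None passed, with edgeR adjusted p of 0.551 for Mmp12, 0.359 for Mmp3 and 0.602 for Mmp13. Mmp10, a second stromelysin, had 10, 7 and 0 counts in fx/fx, against 0, 3 and 2 counts in wt/wt.

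**Figure D3:**
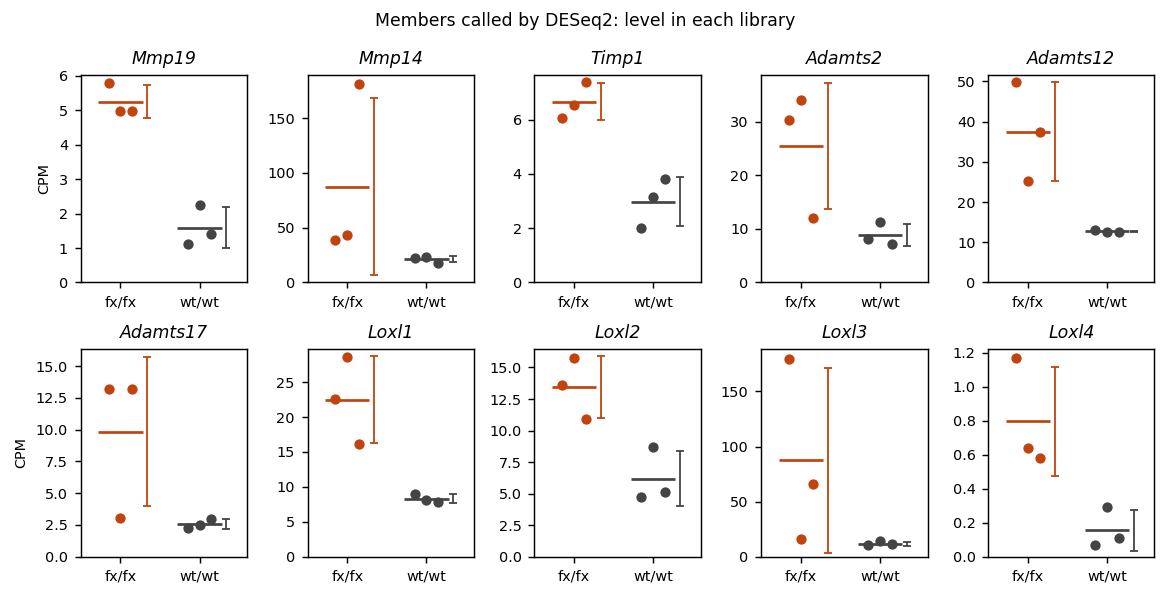
CPM of the 10 members called by DESeq2 in each library (points; fx/fx left, wt/wt right), with the mean (line) and SD (bar beside it, n = 3 per genotype). Mmp19 and Timp1 have closely spaced fx/fx libraries, while Mmp14 (fx3) and Loxl3 (fx1) each have 1 library far above the others.

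All 3 inhibitors tested had a log2 fold change above 0 (median 0.82), and DESeq2 called Timp1. Timp1, which blocks secreted metalloproteinases, measured 6.06, 6.56 and 7.40 CPM in fx1, fx2 and fx3, against 1.99, 3.15 and 3.80 CPM in wt1, wt2 and wt3. The means were 6.67 ± 0.676 CPM in fx/fx and 2.98 ± 0.914 CPM in wt/wt (SD, n = 3 each), 2.24-fold higher (log2 fold change 1.16, SE 0.34; adjusted p = 0.227 in edgeR and 0.0153 in DESeq2). Unlike most members it was highest in fx3, and its DESeq2 call was lost without fx1, fx3, wt1 or wt2. Timp3, which is bound to matrix and also inhibits ADAM and ADAMTS enzymes, measured 93.2, 67.8 and 38.0 CPM in fx/fx, against 32.8, 35.4 and 44.3 CPM in wt/wt, with fx3 below wt3 (log2 fold change 0.82, SE 0.32; edgeR adjusted p = 0.313). Timp2, which takes part with Mmp14 in the activation of Mmp2, ranged from 25.3 to 68.4 CPM in fx/fx and from 32.2 to 46.8 CPM in wt/wt (log2 fold change 0.28, SE 0.36; edgeR adjusted p = 0.782).

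Of the 9 ADAMTS genes, 8 had a log2 fold change above 0 (median 0.93) and DESeq2 called 3. Adamts12 (ENSMUSG00000047497, chromosome 15, 11064790 to 11349231, plus strand), which degrades cartilage oligomeric matrix protein, had the smallest p of the set. It measured 49.8, 25.3 and 37.3 CPM in fx1, fx2 and fx3, against 12.9, 12.6 and 12.55 CPM in wt1, wt2 and wt3. The wt/wt libraries were almost equal, and the lowest fx/fx library stood well above them, with means of 37.5 ± 12.25 CPM in fx/fx and 12.7 ± 0.206 CPM in wt/wt (SD, n = 3 each), a 2.95-fold higher level. The log2 fold change was 1.56 (SE 0.27; adjusted p = 0.153 in edgeR and 8.38e-05 in DESeq2), and DESeq2 called it with any 1 library left out.

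Adamts2, the enzyme that removes the amino-terminal propeptide of fibrillar procollagens, measured 30.2, 34.1 and 12.0 CPM in fx/fx, against 8.11, 11.3 and 7.23 CPM in wt/wt. The fx3 value lay just above wt2 (log2 fold change 1.52, SE 0.41; adjusted p = 0.210 in edgeR and 0.0181 in DESeq2), and the DESeq2 call was lost without fx1, fx2, wt1 or wt3. Adamts17, known for microfibrils and short stature in humans, measured 13.2, 3.05 and 13.2 CPM in fx/fx, against 2.24, 2.502 and 2.99 CPM in wt/wt. Here fx2 was level with wt3 (log2 fold change 1.93, SE 0.55; adjusted p = 0.218 in edgeR and 0.0133 in DESeq2), and the DESeq2 call was lost without fx1, fx3, wt1 or wt2.

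Proteoglycan-cutting enzymes had smaller log2 fold changes than the 3 ADAMTS genes that DESeq2 called. Adamts4, an aggrecanase, measured 6.87, 10.2 and 4.90 CPM in fx/fx, against 4.14, 4.33 and 3.97 CPM in wt/wt (log2 fold change 0.82, SE 0.35; edgeR adjusted p = 0.345). Adamts5, the other main aggrecanase, measured 8.17, 12.0 and 4.20 CPM in fx/fx, against 3.83, 3.84 and 4.48 CPM in wt/wt, so that fx3 overlapped with wt/wt (log2 fold change 1.00, SE 0.41; edgeR adjusted p = 0.333). Adamts9, which cuts versican, measured 6.25, 8.73 and 4.75 CPM in fx/fx, against 3.39, 2.88 and 4.11 CPM in wt/wt, without overlap (log2 fold change 0.93, SE 0.34; edgeR adjusted p = 0.300). Adamts10, the most abundant per length of the family at 5.76 RPKM and a microfibril gene, measured 40.2, 28.2 and 42.8 CPM in fx/fx, against 21.0, 26.7 and 29.5 CPM in wt/wt (log2 fold change 0.53, SE 0.23; edgeR adjusted p = 0.357). Among the 9 ADAMTS members, Adamts15 was the one with a log2 fold change below 0 (-0.58, SE 0.72). It lay at 3.03 to 5.598 CPM in fx/fx and 1.73 to 14.0 CPM in wt/wt, where wt2 alone held the high value.

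**Figure D4:**
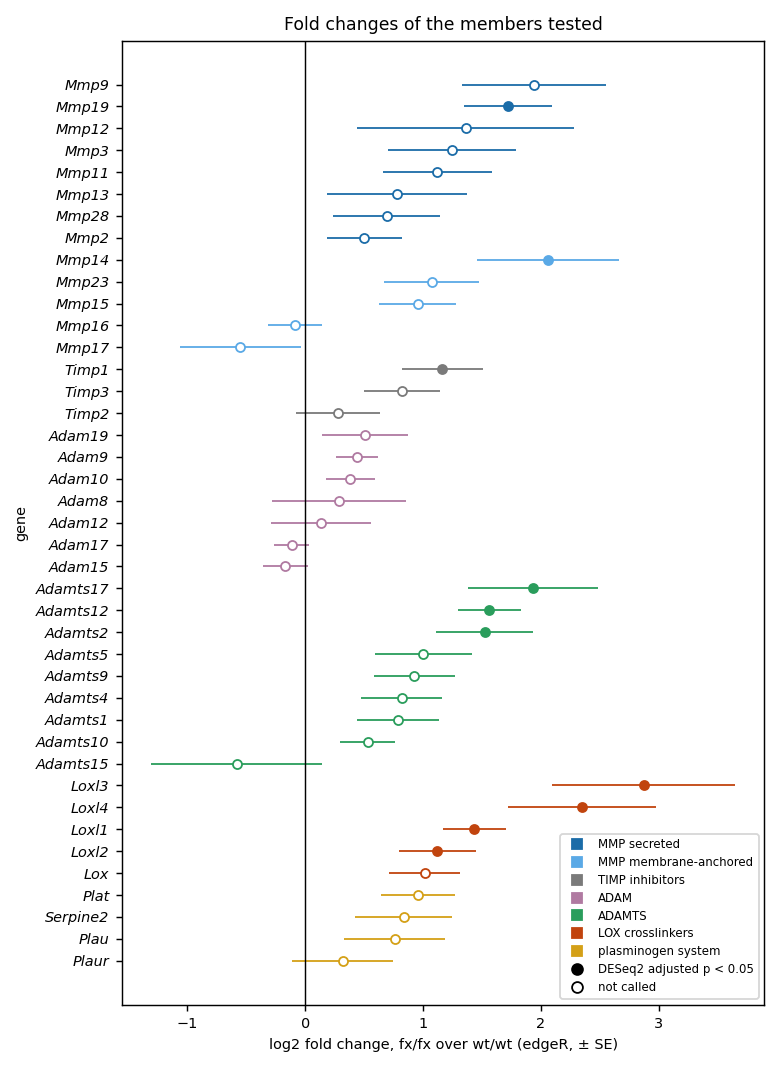
log2 fold change of fx/fx over wt/wt from edgeR with its SE for the 41 members tested, grouped by role; filled points were called by DESeq2, open points were not, and edgeR called 0. The lysyl oxidases all lie above 1.00, while the ADAM genes lie between -0.17 and 0.51.

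The ADAM members were the family of the set nearest to no difference, with a median log2 fold change of 0.29 and 5 of 7 above 0. Adam10 and Adam17, the main sheddases of ErbB ligands and Notch receptors, were among the 5 members with the highest RPKM, as was Adam9. Adam17 varied little, lying between 91.5 and 103 CPM in fx/fx and between 100.2 and 107 CPM in wt/wt (log2 fold change -0.12, SE 0.15; edgeR adjusted p = 0.784). Adam10 measured 274, 190.0 and 283 CPM in fx1, fx2 and fx3, against 210.2, 169.5 and 193 CPM in wt1, wt2 and wt3 (log2 fold change 0.38, SE 0.21; edgeR adjusted p = 0.457). Adam9, a widely expressed ADAM, was the only one without overlap, at 117, 102 and 96.7 CPM in fx/fx against 77.3, 66.8 and 89.1 CPM in wt/wt (log2 fold change 0.44, SE 0.18; adjusted p = 0.328 in edgeR and 0.314 in DESeq2). Adam8, known from myeloid cells, was highest in fx2 (13.6 CPM) and at 4.41 and 4.51 CPM in fx1 and fx3, against 3.04 to 8.09 CPM in wt/wt. Adam12, known from myofibroblasts, reached 82.7 CPM in fx1 and 73.7 CPM in wt1, against 29.1 to 43.0 CPM in the other libraries.

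The plasminogen system, which generates the broad serine protease plasmin, had 4 of 4 log2 fold changes above 0 (median 0.80). Plat, the tissue plasminogen activator gene, measured 10.5, 7.77 and 6.09 CPM in fx/fx, against 4.03, 4.76 and 3.78 CPM in wt/wt, without overlap (log2 fold change 0.96, SE 0.32; adjusted p = 0.256 in edgeR and 0.0532 in DESeq2). Serpine2, an inhibitor of thrombin and plasminogen activators, measured 163, 171 and 114 CPM in fx/fx, against 39.8, 76.8 and 135 CPM in wt/wt, so that fx3 fell below wt3 (log2 fold change 0.84, SE 0.41; edgeR adjusted p = 0.413). Like Adamts4, it lies on chromosome 1, whose genes had a median log2 fold change of 0.37. Plau, the urokinase gene, measured 17.3, 14.2 and 5.26 CPM in fx/fx, against 7.36, 7.22 and 7.18 CPM in wt/wt, so that fx3 lay below a narrow wt/wt range (edgeR adjusted p = 0.468). Its receptor gene Plaur ranged from 1.72 to 3.27 CPM in fx/fx and from 1.31 to 2.84 CPM in wt/wt.

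The fx3 library was the lowest of the fx/fx libraries for 29 of the 41 members, while all 6 possible orders of these libraries occurred. In 19 of the 41 members the order was fx2, fx1, fx3 from high to low, and in a further 10 it was fx1, fx2, fx3. The first group included Mmp2, Mmp3, Mmp11, Mmp12, Mmp13, Adamts2, Adamts4, Adamts5, Adamts9, Loxl1 and Loxl2. Fibroblast and macrophage marker sums had that order too, and endothelial markers, at 46.0, 41.3 and 22.9 RPKM in fx1, fx2 and fx3, against 24.0, 19.3 and 23.5 RPKM in wt1, wt2 and wt3, had their lowest fx/fx value in fx3. Their part in the result was not tested. The other 12 members did not have fx3 lowest, among them Mmp14, Mmp9 and Timp1 (highest in fx3, lowest in fx1), Adamts17 and Adamts10 (lowest in fx2) and Mmp15, Adamts12 and Loxl3 (highest in fx1, lowest in fx2). Without fx3, 31 members lay higher in fx/fx without overlap, as did 15.3% of all genes in that comparison of 2 libraries with 3. Then 28 members had an unadjusted edgeR p under 0.05 (12.9% of all genes) and DESeq2 called 15 (5% of all genes).

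The wider set of matrix turnover genes leaned the same way, unevenly between its lists. Of 85 further genes (procollagen proteinases, other ADAMTS genes, serpins, cathepsins, collagen hydroxylases) 69 were tested, 52 had a log2 fold change above 0, and edgeR called 0. At an unadjusted edgeR p under 0.05, 22 were higher and 3 lower in fx/fx (8.18% and 6.04% of all genes). DESeq2 called 12 higher and 1 lower (3.01% and 1.95% of all genes). The median log2 fold change was 0.36, against 0.84 for the 45-gene set. By list it was 0.78 for other metalloproteases and inhibitors and 0.89 for other plasminogen and serine protease genes. In the first of these lists 18 of 23 genes tested were above 0 and 5 below. Those below included relatives of the members: Adam11 (log2 fold change -1.16), Mmp25 (-0.98) and Adamts8 (-0.28). The median was 0.28 for collagen hydroxylases and other crosslinkers and 0.02 for cathepsins and cystatins.

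The DESeq2 calls came from several lists, and the list of collagen hydroxylases and other crosslinkers had 1 of 17 called (5.88%, against 4.96% of all genes). P4ha1, P4ha2, P4ha3, Plod1, Plod2 and Plod3 were not called. Bmp1, the procollagen C-proteinase, averaged 33.8 ± 14.1 CPM in fx/fx and 9.55 ± 2.503 CPM in wt/wt (n = 3 each; adjusted p = 9.32e-04 in DESeq2 and 0.171 in edgeR). Pcolce, its enhancer, averaged 16.9 ± 5.28 CPM in fx/fx and 6.58 ± 0.961 CPM in wt/wt (DESeq2 adjusted p = 0.00322). Serpinh1 and Fkbp10, collagen chaperones, were 1.87-fold and 3.48-fold higher (DESeq2 adjusted p = 0.0406 and 0.0031). Ctsk, a collagen-degrading cathepsin, was 2.85-fold higher (DESeq2 adjusted p = 0.0191), while the median of the 13 cathepsin and cystatin genes was 0.02 on the log2 scale. With 1 library left out, the calls of Bmp1 and Fkbp10 held throughout, that of Pcolce was lost without wt1, that of Serpinh1 without fx1, fx3, wt1 or wt3, and that of Ctsk without any library but fx3.

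The other DESeq2 calls were spread over protease families. Adamts7 measured 35.0, 51.6 and 41.4 CPM in fx/fx, against 16.8, 13.2 and 21.3 CPM in wt/wt (adjusted p = 7.75e-04 in DESeq2 and 0.153 in edgeR). Serpinf1, which encodes an anti-angiogenic serpin, was 2.90-fold higher, and the serine protease genes Htra1 and Htra3 were 2.75-fold and 2.58-fold higher. Spint1, an epithelial inhibitor of matriptase, was 1.84-fold higher, Adamtsl3, a scarce gene (2.11 CPM in fx/fx and 0.508 CPM in wt/wt), was 4.15-fold higher, and Mme (neprilysin) was 6.08-fold higher with overlap between wt3 and fx2. The calls of Htra1 (lost without 5 of the 6 libraries) and of Htra3, Spint1, Adamtsl3 and Mme (each lost without 4) rest on most libraries being kept, while those of Adamts7, Serpinf1 and Dpp4 held with any 1 left out. Dpp4, a dipeptidyl peptidase of the cell surface, was the gene called lower, at 8.43, 19.9 and 22.2 CPM in fx/fx, against 58.0, 41.4 and 65.3 CPM in wt/wt (adjusted p = 0.00206 in DESeq2 and 0.182 in edgeR). Plg, the source of plasmin, was near the floor, at 0.0753 to 0.364 CPM in fx/fx and 0.0447 to 0.218 CPM in wt/wt.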

How the data were processed

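RNA of 6 tumor libraries, 3 fx/fx and 3 wt/wt, was analysed from the deposited counts of read pairs per gene, made by the authors with featureCounts 1.6.0 (strand option 2, multi-aligned reads not switched on, Ensembl 93 annotation of GRCm38), per the file headers. Per the submitters' processing notes, tools included STAR 2.5.1b, DESeq2 1.12.3 and another featureCounts version, 1.4.6. Symbols were matched by Ensembl ID for 54079 of 54232 rows, and 0 rows named no gene. 1 listed name outside the set, Leprel2, is an older symbol of P3h3 and was counted once.

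The comparison of fx/fx with wt/wt used edgeR 4.0.16 under R 4.3.3 (filterByExpr, TMM, quasi-likelihood test with robust=TRUE, 2-sided, Benjamini-Hochberg over all genes, threshold 0.05), with DESeq2 1.42.0 as an alternative. The filter asked for about 0.226 CPM in 3 libraries. Values are fx/fx over wt/wt, and log2 levels use CPM + 1. The floor of 3 counts covers counting error only. Each library was left out in turn, and other scalings, no filter and a replicate block were tried. The steps were tested on simulated data. The members, lists and the rule for named genes (members with an unadjusted edgeR p under 0.05 or a DESeq2 call, the most abundant and the smallest-p member of each family, other genes with a DESeq2 call) were chosen with earlier results of these data known. Mmp3, Mmp10, Mmp12, Mmp13 and Plau are given by library outside that rule, after their values were seen. Adam11, Mmp25 and Adamts8 are named outside it too. No batch is given in the labels. Exons of 44 of the 45 members overlap with no other gene on their strand, and Loxl2 shares 7 bases with Mir6950.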

Additional observations from a re-analysis of the deposited data

How the results depend on the processing

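The number of genes passing edgeR, 0, was 831 with DESeq2 and 38 without the filter on low counts, and with 1 library left out between 0 and 2 (without fx2). DESeq2 then called 528, 1738 and 864 genes without fx1, fx2 and fx3, and 406, 622 and 558 without wt1, wt2 and wt3. For the members, 0 edgeR calls became 10 with DESeq2 and 1 without the filter, and DESeq2 called 5, 8 and 15 without fx1, fx2 and fx3, and 4, 7 and 7 without wt1, wt2 and wt3. For the other matrix genes, 0 edgeR calls became 13 with DESeq2, which called 7, 15 and 13 without fx1, fx2 and fx3, and 5, 10 and 7 without wt1, wt2 and wt3. The 21 members at an unadjusted edgeR p under 0.05 numbered between 13 (without fx1 or wt2) and 28 (without fx3) with a library left out, where the share of all genes was 9.81% without fx1, 11.3% without wt2 and 12.9% without fx3, and lay between 9.81% and 17.7% over the 6. The 18 higher without overlap (9.74% of all genes) numbered 17 with library totals only (9.11%), and between 18 and 31 (without fx3) with a library left out. The share of all genes then rose too, to 13% without fx1 and 15.3% without fx3, and lay between 12.9% and 18.6% over the 6. The median log2 fold change of the members, 0.84, ranged from 0.69 (without fx2) to 1.09 (without fx3). Arhgap31 passed in DESeq2 at a log2 fold change of -2.397, at -2.799, -2.031 and -2.45 without fx1, fx2 and fx3, and at -2.227, -2.546 and -2.396 without wt1, wt2 and wt3. Timp2 reversed without fx2, to -0.019 in edgeR, where leaving out a library gave up to 0.61, and to -0.029 in DESeq2. The cause of these changes was not tested.

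Replicate numbers are shared between genotypes, but libraries of the same number did not deviate together (correlations -0.085, -0.095 and 0.057 for numbers 1, 2 and 3). With the number as a replicate block, edgeR called 0 genes and 0 members, and 14 members had an unadjusted p under 0.05 (12.4% of all genes). The members' median log2 fold change was then 0.89 and that of Arhgap31 was -2.54. With 3 libraries a genotype, scarce members such as Loxl4, Mmp9 and Mmp10 are limited by their counts.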
